A study of Mus musculus with 3 samples.

Results

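Adhesion G protein-coupled receptors are a class of surface receptors, taken here as every gene whose symbol reads Adgr, a subfamily letter and a number. That rule found 27 genes among the 31053 in the deposited matrices, on 12 chromosomes. They were measured by single-cell RNA sequencing of mouse bone marrow in 3 libraries, 1 for each genotype. The mice were C57Bl/6JCrl, and every group received tamoxifen by gavage. The library called WT is wild type, and the FLOX library came from mice with Vegfc flox/flox and no Cre named in the label. The VC library came from Cdh5CreERT2;Vegfc flox/flox mice, which carry a tamoxifen-activated Cre under the endothelial Cdh5 promoter (Cdh5 encodes VE-cadherin) together with the floxed growth factor gene Vegfc. Tibial marrow was flushed and digested, endothelium was marked in the animal by an antibody to VE-cadherin, and staining covered CD45, Ter119 and LepR. How many mice entered a library, and at what age, the sources used here do not say.

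Receptors of this class carry a long extracellular region built of adhesion modules that bind matrix proteins or proteins on neighbouring cells. Most are cut during synthesis at a GAIN domain next to the membrane, and the stub left on the membrane part can act as a tethered agonist. Activated receptors signal through heterotrimeric G proteins, often those that switch on the GTPase RhoA. In blood vessels the class is known for receptors that shape sprouting and barrier function, and in blood cells for the EGF-TM7 receptors, of which F4/80 (Adgre1) is the classical macrophage marker.

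Barcodes needed 500 or more genes and no more than 10% mitochondrial UMIs to be kept, which left 4318 in WT, 5734 in FLOX and 2738 in VC. The cells were gated on 6 genes, none of them a receptor of the class. Sinusoidal endothelial cells, the lining of the marrow's wide venous capillaries, had Cdh5 and at least 2 counts of the scavenger receptor gene Stab2. Other endothelial cells had Cdh5 and at most 1 Stab2 count, and both classes had fewer than 50 counts of Cxcl12. LepR stromal cells, the perivascular cells that make Cxcl12, had at least 50 counts of Cxcl12, a count of Lepr or Adipoq and at most 2 of Cdh5. Haematopoietic cells had Ptprc, the gene of CD45, no Cdh5 and at most 5 counts of Cxcl12. The WT, FLOX and VC libraries held 2992, 3200 and 1643 sinusoidal cells and 204, 381 and 197 other endothelial cells. They held 264, 1107 and 466 LepR stromal cells and 569, 689 and 278 haematopoietic cells. Counts are UMIs, each standing for 1 captured transcript. The 12 sums, 1 for each class in each library, held between 1648481 and 39099077 UMIs.

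The gated classes carried their own markers, together with markers of blood cells. Sinusoidal markers summed to 9386 to 10715 CPM, that is UMIs scaled to the same total in each class and library, in sinusoidal cells and to 1457 to 1658 CPM in other endothelial cells. LepR stromal markers summed to 32065 to 37321 CPM in stromal cells. Both lists hold genes that the gates use, Stab2 in the first and Lepr, Adipoq and Cxcl12 in the second. Part of these sums was therefore set by the gates. Stab2 alone held 1335 to 1742 CPM in sinusoidal cells and Cxcl12 alone 23821 to 26705 CPM in stromal cells. Other endothelial cells also carried neutrophil markers, at 20464 to 33483 CPM against 727 to 6802 CPM in sinusoidal cells, and plasma cell markers at 420 to 8578 CPM. LepR stromal cells carried neutrophil markers at 314 CPM in WT, 2964 in the FLOX library and 8336 in VC. Monocyte and macrophage markers, a list that includes Vcam1, summed to 1690 to 2256 CPM in stromal and 1445 to 2817 CPM in sinusoidal cells. In haematopoietic cells they summed to only 255 to 392 CPM, so these sums are no measure of blood cell RNA. No doublet caller was run here, so each contrast was repeated without mixed droplets. These were, for example, endothelial cells with any Ptprc or Adipoq and stromal cells with any Cdh5 or Ptprc. Endothelial cells with more than 5 counts of Cxcl12 were dropped as well. That left 131 (WT), 191 (FLOX) and 113 (VC) other endothelial cells, and the makeup of the class changed. Its sinusoidal markers then summed to 2650 to 3703 CPM, and its arterial markers to 448 to 809 CPM against 452 to 1204 CPM before. Between libraries 7, 5 and 3 barcodes were shared among kept cells. Vegfc stood at 246 CPM (WT), 201 (FLOX) and 145 (VC) in stromal cells and at 1.56, 0.562 and 0.279 CPM in sinusoidal cells. Which exon is floxed the labels do not say, so a tag at the 3' end may not read the deletion.

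Of the 27 receptors, 17 reached 60 UMIs over the 12 sums and were tested, and 10 of those reached a mean of 10 CPM in at least 1 class and are described gene by gene. The other 7 tested genes were Adgrg2, Adgrl3, Adgrd1, Adgrv1, Adgrg7, Adgre4 and Adgre1, with 77 to 200 UMIs each. Adgrb1 had 46 UMIs, Adgrb2 38, and Adgrb3, Adgrf1, Adgrf2, Adgrf3, Adgrf4, Adgrg4 and Adgrg5 between 1 and 9. Adgra1 had 0 UMIs. A receptor can pass the 60 UMI minimum through 1 class alone, so the counts of tested receptors below are descriptions. Several members are neighbours in the GENCODE vM21 annotation of GRCm38. Adgrg5, Adgrg1 and Adgrg3 lie in a row on the plus strand of chromosome 8, with 31471 and 3475 bases between them, and Adgrf1 lies 35714 bases from Adgrf5 on chromosome 17.

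Summed over all its genes, the class was densest in endothelium. Of the 10 described receptors, 5 had their highest mean level in sinusoidal, 1 in other endothelial and 4 in LepR stromal cells. All 27 genes together made up 2287 (WT), 2008 (FLOX) and 1987 CPM (VC) in sinusoidal cells, and 1558, 1559 and 1628 CPM in other endothelial cells. Stromal cells stood at 702, 588 and 619 CPM and haematopoietic cells at 218, 371 and 263 CPM, so no library of 1 class overlapped another class. A few genes made up most of the sinusoidal sum, with Adgrf5, Adgrg6 and Adgrl4 at 763, 524 and 423 CPM in WT. After each cell was thinned to 2000 UMIs, the median sinusoidal cell showed 3 different receptors in every library and the median stromal cell 1. The median haematopoietic cell showed 0. Cells with no receptor count at all made up 1.48% to 3.00% of sinusoidal cells and 56.1% to 62.9% of haematopoietic cells.

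The promoters below are shown because their genes, Adgrl4, Adgrf5 and Adgrg6, were all higher in endothelium than in stroma and yet spread differently over the classes. Each is the 250 bases before the RefSeq start on GRCm38.p6, 5′ to 3′ on the gene's strand, with AGGAAG or its reverse complement in capitals, the letters of a common ETS factor site. Adgrl4 lies at chr3:151437632-151437881 on the plus strand, Adgrf5 at chr17:43360181-43360430 on the plus strand and Adgrg6 at chr10:14545037-14545286 on the minus strand.
Adgrl4: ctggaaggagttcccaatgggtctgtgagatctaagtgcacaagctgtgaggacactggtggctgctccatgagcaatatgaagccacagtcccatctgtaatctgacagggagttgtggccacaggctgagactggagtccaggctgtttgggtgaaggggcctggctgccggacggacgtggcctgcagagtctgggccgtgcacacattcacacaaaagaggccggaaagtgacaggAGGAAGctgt
Adgrf5: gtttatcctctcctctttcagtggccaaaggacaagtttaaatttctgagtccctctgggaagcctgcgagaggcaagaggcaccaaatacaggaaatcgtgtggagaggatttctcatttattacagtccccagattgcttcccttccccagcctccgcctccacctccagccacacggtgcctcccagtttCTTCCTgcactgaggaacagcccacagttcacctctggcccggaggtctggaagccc
Adgrg6: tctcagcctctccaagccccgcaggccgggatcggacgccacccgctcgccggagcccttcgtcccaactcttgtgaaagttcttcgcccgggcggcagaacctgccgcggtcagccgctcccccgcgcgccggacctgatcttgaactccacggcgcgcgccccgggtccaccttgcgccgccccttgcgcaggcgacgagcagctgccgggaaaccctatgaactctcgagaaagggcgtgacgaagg
The Adgrl4 window holds 1 match starting 10 bases before the start, the Adgrf5 window holds 1 match at 57 bases, and the Adgrg6 window, which lies inside the gene's GENCODE span, holds none. The GC content is 56.8% for Adgrl4, 54.4% for Adgrf5 and 69.6% for Adgrg6. Searched on both strands, the motif was in 7 of the 20 members with a promoter in the table and in 29.5% of all 32851 windows of that length. It was in 3 of the 6 receptors higher in endothelium than in stroma, and a match of this kind is a description of letters only.

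**Figure D1:**
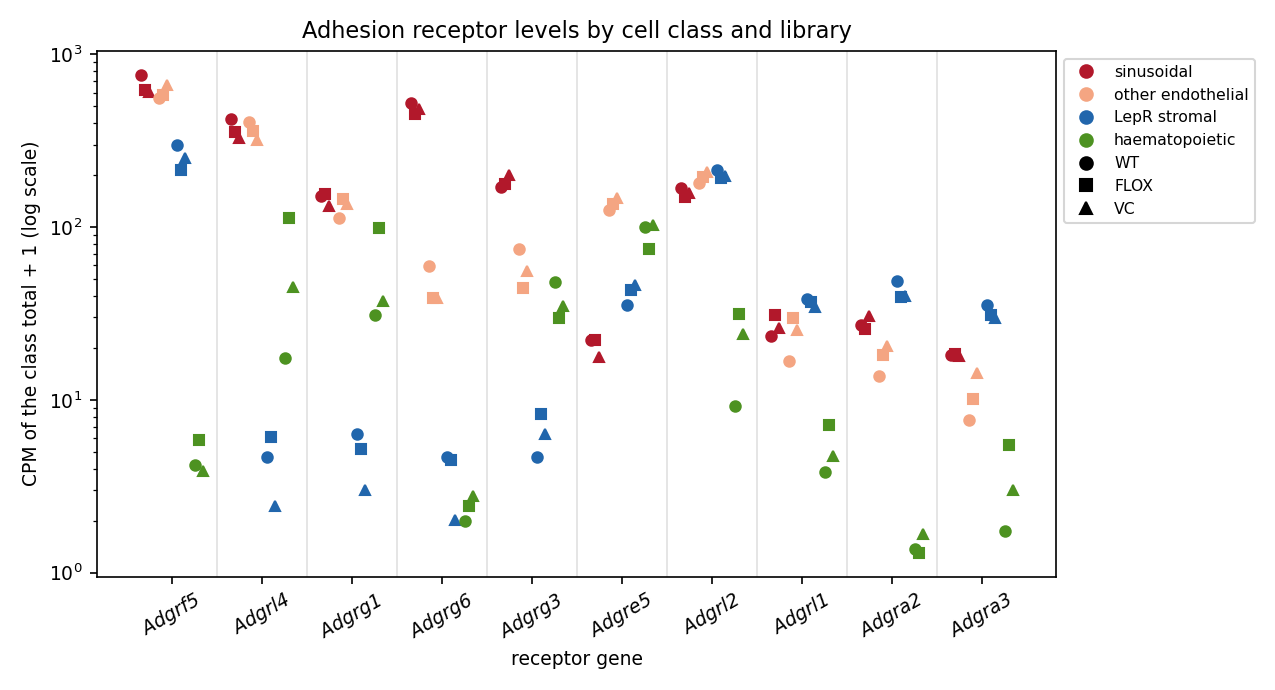
Level of the 10 described receptors in each cell class (colour) and library (symbol), as CPM of the class total plus 1 on a log axis. Adgrf5 was high in both endothelial classes and at 214 to 297 CPM in LepR stromal cells, while Adgrl4 was at 1.43 to 5.07 CPM there.

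Adgrg6 set sinusoidal cells apart from other endothelium. It encodes GPR126, a receptor for type IV collagen, laminin and prion protein that is best known for switching on myelination in Schwann cells, and lies at chr10:14402583-14545659 on the minus strand. In the order WT, FLOX, VC, which is kept from here on, sinusoidal cells held 524, 451 and 480.4 CPM and other endothelial cells 58.8, 37.7 and 37.8. The 3 sinusoidal values lay above all other endothelial values, with ratios of 8.90, 11.97 and 12.7 within the libraries. The log2 difference was 3.53 (SE 0.27, edgeR adjusted p = 1.55e-05). It was 2.44 without mixed droplets, 4.18 with a stricter cell filter and 4.45 with stricter gates on Stab2. The setting without mixed droplets also changed the makeup of the other endothelial class. LepR stromal and haematopoietic cells held 1.01 to 3.69 and 0.990 to 1.77 CPM.

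The share of cells with an Adgrg6 count was also higher in sinusoidal cells. At 2000 UMIs per cell 58.1%, 53.5% and 55.6% of sinusoidal cells had a count, against 15.9%, 9.33% and 10.3% of other endothelial cells. Stromal cells, read as the background, stood at 1.15%, 0.905% and 0.216%. Without thinning the sinusoidal shares were 89.2%, 83.5% and 88.4% and the other endothelial shares 23.5%, 14.2% and 20.3%. Median depths were 11106.5, 7781 and 10745 UMIs in sinusoidal and 5421, 5765 and 6778 UMIs in other endothelial cells. Those of stromal cells were 10654, 11315 and 13581.5 UMIs. The gates counted Stab2 before thinning, so a shallow sinusoidal cell can fall among the other endothelial cells, and the part of this was not tested.

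Adgrg3 followed in the same direction with a smaller difference. It encodes GPR97, a receptor of granulocytes that has also been described in lymphatic endothelium, and lies next to Adgrg1 at chr8:95017692-95045250. Sinusoidal cells held 169.7, 177.9 and 199.8 CPM, and other endothelial cells 73.4, 43.2 and 54.5. The groups did not overlap, and the log2 difference was 1.77 (SE 0.22, edgeR adjusted p = 2.21e-04), and 1.28 without mixed droplets. Adgra2, the Wnt7 coreceptor GPR124 of brain vessel growth, was at 26.1, 24.8 and 29.5 CPM in sinusoidal and 12.7, 17.2 and 19.5 CPM in other endothelial cells. Its log2 difference of 0.74 (SE 0.18, edgeR adjusted p = 0.0123) lost the call without FLOX (adjusted p = 0.109), without VC (0.0515) and without mixed droplets (0.121).

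Adgre5 ran the other way. It encodes CD97, an EGF-TM7 receptor of leukocytes that binds the complement regulator CD55 and Thy1, at chr8:83723251-83741326 on the minus strand. Other endothelial cells held 125.0, 135.8 and 145.8 CPM and sinusoidal cells 21.3, 21.1 and 16.6, again with no overlap. The log2 difference, sinusoidal against other endothelial, was -2.71 (SE 0.17, edgeR adjusted p = 5.98e-06). Adgre5 is also a leukocyte gene. Without mixed droplets the difference was -2.74 (edgeR adjusted p = 7.94e-06), and neutrophil markers then summed to 577.5, 273.8 and 171.1 CPM in other endothelial cells against 158.4 to 283.1 CPM in sinusoidal cells. B lineage markers then summed to 290.0, 169.1 and 268.1 CPM against 20.8 to 32.3 CPM. Plasma cell markers then summed to 643, 1035 and 5236 CPM against 852 to 1114 CPM. Erythroid markers summed to 3585, 1689 and 29.95 CPM against 11.2 to 775.5 CPM. The part of remaining blood cell RNA was not tested. Adgre4, another EGF-TM7 gene, was called lower in sinusoidal cells on 9, 8 and 0 UMIs from 1, 2 and 0 other endothelial cells. The difference was -3.91 (edgeR adjusted p = 0.00746) and 3.31 (adjusted p = 0.752) without mixed droplets. The call was also lost without WT (adjusted p = 0.0644), without FLOX (0.115) and with stricter Stab2 gates (0.0519).

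In all, 3 tested receptors were higher in sinusoidal cells and 2 in other endothelial cells, and 12 were not called. Over all 14771 genes tested, 30.6% were called, 14.1% higher in sinusoidal and 16.5% higher in other endothelial cells, so the 5 of 17 called receptors are near the background. Adgrf5 (log2 difference 0.19, SE 0.20), Adgrl4 (0.10, SE 0.47), Adgrg1 (0.24, SE 0.32) and Adgrl2 (-0.23, SE 0.33) were among those not called. The median log2 difference was 0.19 over the 17 receptors and 0.03 over all genes.

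**Figure D2:**
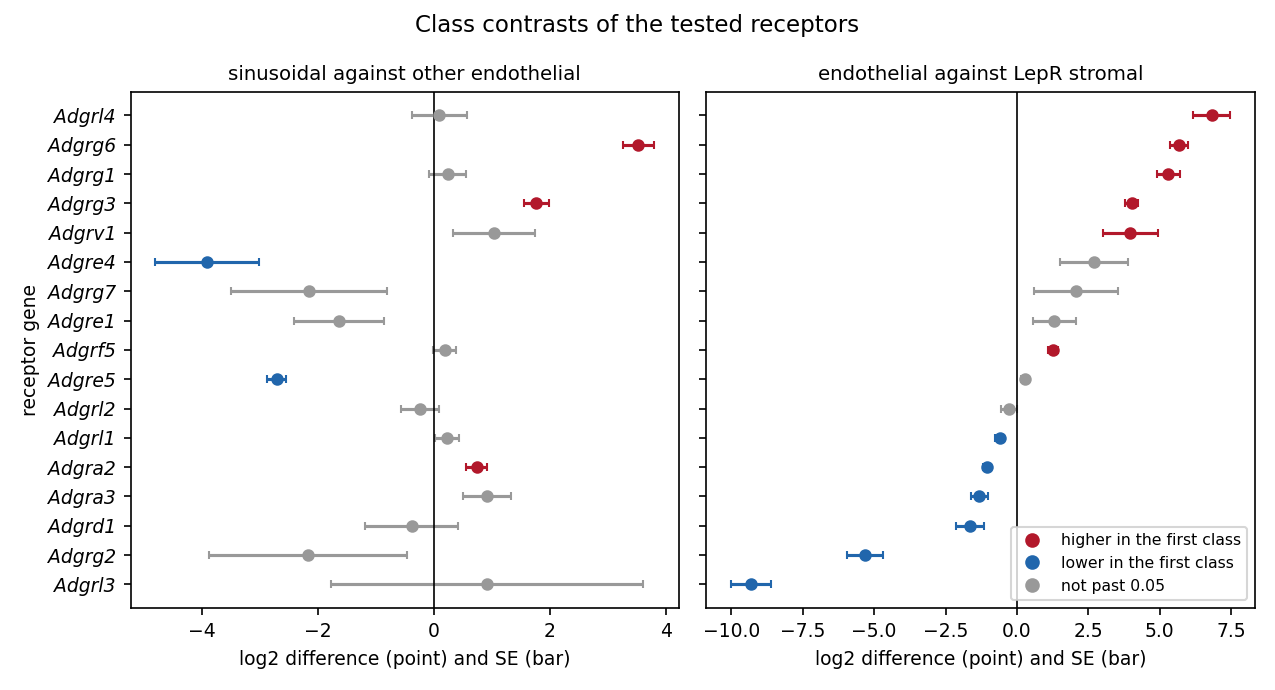
Log2 differences of the 17 tested receptors between sinusoidal and other endothelial cells (left) and between endothelial and LepR stromal cells (right), with bars of 1 SE from edgeR and colour for calls at an adjusted p under 0.05. Values that rest on 0 to 3 UMIs in a compared class, those of Adgrl3, Adgrg2 and Adgrg7 in both panels and of Adgrv1 and Adgre4 on the right, are no measure of size. Adgrg6 stands at 3.53 and Adgre5 at -2.71 on the left.

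Arterial-marked cells, those other endothelial cells with at least 3 of 8 arterial markers, numbered 44, 150 and 73. Their Adgre5 stood at 181.7, 181.3 and 191.2 CPM and their Adgrg6 at 16.2, 5.27 and 7.31 CPM. Cells of the class with fewer of those markers held 96.1, 101.3 and 107.6 CPM of Adgre5 and 80.5, 62.4 and 63.5 CPM of Adgrg6. In WT the arterial-marked cells carried 1 UMI of Ptprc (1.80 CPM) beside 101 UMIs of Adgre5. In the FLOX and VC libraries Ptprc stood at 39.1 and 62.1 CPM in them. The cells with fewer arterial markers carried 242, 131.0 and 156.7 CPM of it.

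The arterial-marked cells were also rich in Adgrf5, at 984, 937 and 1036 CPM against 339.5, 314.7 and 359.6 in the class's other cells. Adgrl2, a latrophilin that binds teneurins and FLRT proteins, stood at 305.9, 258.8 and 257.0 CPM against 115.3, 145.9 and 168.0. Adgrl4 stood at 676.5, 447.6 and 399.5 CPM against 267.2, 291.2 and 247.9. Cdh5 was higher in these cells as well, at 1643, 1043 and 1107 CPM against 648, 660.3 and 700.8. The number of UMIs per cell differed too, with medians of 11396.5, 7031.5 and 9285 against 3735.5, 4669 and 5030. The part of depth in these differences was not tested. Cells of the sinusoidal gate with the same arterial marking, 115, 100 and 63 in number, held 106.9, 85.2 and 68.6 CPM of Adgre5 and 169.4, 180.1 and 278.7 CPM of Adgrg6. Their Adgre5 lay above the level of the whole sinusoidal class and their Adgrg6 below it, in each library. These cells had median depths of 22177, 16358 and 21430 UMIs, against 11106.5, 7781 and 10745 in the whole sinusoidal class. The part of depth or of mixed droplets in their levels was not tested.

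Within all endothelial cells, Adgrg6 was higher in each successive Stab2 bin of each library, while Adgrg3 was lowest and Adgre5 highest in the bin without Stab2. Cells were thinned to 2000 UMIs and binned by Stab2 count, and the bins describe cells of 3 libraries with no test. The gates split the same cells by the same gene, so the bins are no separate support for the class contrast. The bin without Stab2 held 360, 586 and 336 cells, while 164, 343 and 165 other endothelial cells were thinned. It therefore includes cells of the sinusoidal gate. From 0 to 4 or more Stab2 counts, Adgrg6 went from 190.3 to 638, from 200.5 to 554 and from 196.4 to 588 CPM. Adgrg3 went from 101.4 to 178.7, from 97.3 to 195.1 and from 135.4 to 190.2 CPM. Adgre5 went from 81.9 to 10.97, from 107.5 to 14.7 and from 87.8 to 8.18 CPM. At 1 Stab2 count Adgre5 stood at 33.1, 29.9 and 23.4 CPM. Adgrl4 was at 454, 410.4 and 340.8 CPM in the bin without Stab2 and at 416, 376.5 and 343.6 CPM at 4 or more counts.

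**Figure D3:**
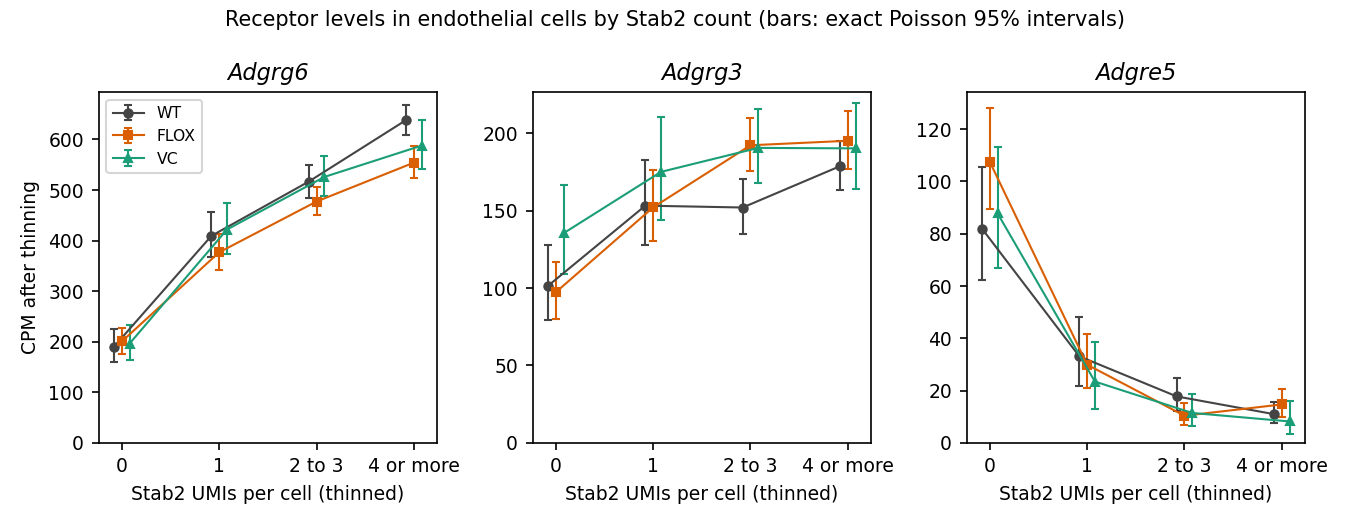
Level of Adgrg6, Adgrg3 and Adgre5 in endothelial cells thinned to 2000 UMIs, by the number of Stab2 counts per cell, for each library with exact Poisson 95% intervals. Adgrg6 was lowest in the bin without Stab2 and highest at 4 or more counts in the 3 libraries, and Adgre5 was highest in the bin without Stab2.

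Endothelium and LepR stroma divided the tested receptors, with 6 higher in endothelium, 6 higher in stroma and 5 not called. All genes gave 54.2% called, 25.5% higher in endothelium and 28.8% higher in stroma, against 12 of 17 here. Higher in endothelium were Adgrl4, Adgrg6, Adgrg1, Adgrg3, Adgrv1 and Adgrf5. Higher in stroma were Adgrg2, Adgra3, Adgrl3, Adgrd1, Adgra2 and Adgrl1. The median log2 difference was 1.26 over the 17 and 0.00 over all genes.

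Adgrl4 was the receptor with the highest endothelial log2 difference against stroma. It encodes ELTD1, an orphan receptor of endothelium and smooth muscle tied to vessel sprouting, at chr3:151437887-151545086. Sinusoidal cells held 423, 357 and 325 CPM, other endothelial cells 405, 359 and 317, and stromal cells 3.69, 5.07 and 1.43. The difference was 6.81 (SE 0.64, edgeR adjusted p = 6.19e-06), and 8.14 without mixed droplets. In stromal cells Adgrl4 stood at 0.441% to 1.42% of its sinusoidal level, close to Kdr, the endothelial VEGF receptor gene, at 0.204% to 0.943%. Adgrg1, the collagen III and transglutaminase receptor GPR56 of cortex development, held 131.8 to 155.0 CPM in sinusoidal cells and 2.01 to 5.37 CPM in stromal cells. Its difference was 5.30 (SE 0.41, edgeR adjusted p = 1.43e-06), and 5.94 without mixed droplets.

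Adgrf5 was shared by both tissues at unequal levels. It encodes GPR116, which restrains surfactant secretion in the lung and is also known from endothelium, at chr17:43360451-43459557. Sinusoidal cells held 763, 623 and 602 CPM, other endothelial cells 557, 583 and 669 and LepR stromal cells 297.0, 214.1 and 249.6. Stromal values lay below every endothelial value (log2 difference 1.26, SE 0.18, edgeR adjusted p = 1.69e-04). Per library, stroma stood at 38.9%, 34.4% and 41.5% of the sinusoidal Adgrf5 level. Cdh5, which the stromal gate limits, stood at 0.763%, 0.499% and 0.340% and Stab2 at 1.12%, 0.820% and 0.398%. Without mixed droplets, where stromal cells had no Cdh5, the Adgrf5 difference was 1.33.

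Adgrf5 was seen in most stromal cells. Counts of it were in 89.8%, 85.6% and 91.9% of stromal cells, and in 41.2%, 33.4% and 38.9% after thinning. Haematopoietic cells, which serve as the background, showed it in 4.39%, 6.24% and 3.96% of cells and in 0.731%, 0.888% and 0.741% after thinning. Their levels were 3.22, 4.87 and 2.87 CPM, and their median depths 7776, 11347 and 10033 UMIs.

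Of the described receptors, Adgra2, Adgra3 and Adgrl1 were called for stroma. Adgra2 held 47.7, 38.6 and 39.2 CPM in stroma, above every sinusoidal (24.8 to 29.5) and other endothelial value (log2 difference -1.04, SE 0.14, edgeR adjusted p = 1.20e-04). Adgra3, the related GPR125 of planar polarity signalling, held 34.2, 29.8 and 28.7 CPM in stroma and 17.2, 17.4 and 17.0 in sinusoidal cells (-1.32, SE 0.30, adjusted p = 0.00389). Adgrl1, the latrophilin first found as a receptor of black widow venom, held 37.2, 35.8 and 33.5 CPM in stroma and 22.3 to 30.2 in sinusoidal cells. Its difference of -0.61 (SE 0.17, adjusted p = 0.0117) lost the call without the library block (0.0595) and without VC (0.0811). Adgrl2 held 213.4, 190.6 and 197.8 CPM in stroma and 147.7 to 208.7 CPM over both endothelial classes, which overlapped (-0.27, SE 0.28, adjusted p = 0.445).

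Adgrl3, the latrophilin linked to synapse formation, was stromal down to single counts. Stroma held 43, 107 and 44 UMIs, or 14.4, 7.97 and 6.32 CPM, and all endothelial cells of the 3 libraries held 1 UMI. The call for stroma (edgeR adjusted p = 6.74e-06) rests on those counts, and no fold is given against a class at that level. Adgrg2 and Adgrd1 were called for stroma at 2.35 to 3.20 and 1.49 to 1.68 CPM. Without FLOX both fell under the 60 UMI minimum. Without VC Adgrg2 fell under it and Adgrd1 lost the call (edgeR adjusted p = 0.126), as it did without mixed droplets (0.0681). Adgrv1, the very large receptor of hair cell stereocilia, was called for endothelium on 0.978 to 1.54 CPM in sinusoidal cells and lost the call without FLOX (adjusted p = 0.0504).

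Against haematopoietic cells, 10 receptors were higher in endothelium and 5 were lower, with 2 not called. All genes gave 65.8% called, 32.9% higher in endothelium and 33.0% higher in haematopoietic cells. The differences of Adgrf5 (log2 7.16, SE 0.26, edgeR adjusted p = 8.77e-09) and Adgrg6 (6.56, SE 0.34, adjusted p = 9.14e-08) were far from 0. Those of Adgrl4 (2.61, SE 0.48) and Adgrg1 (1.21, SE 0.29) were smaller and uneven over libraries. Adgrl4 held 16.5, 111.6 and 44.2 CPM in haematopoietic cells, and Adgrg1 30.1, 98.3 and 36.5. Adgrl4 was 1.94 without WT, 3.37 without FLOX and 3.87 without stem and progenitor-marked cells. Adgrg1 lost the call without VC (adjusted p = 0.0577) and was 2.06 without stem and progenitor-marked cells. Adgra3 was 2.14 (SE 0.41), 3.18 without FLOX and 3.29 without those cells.

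The 5 receptors higher in haematopoietic cells were Adgre5, Adgrl3, Adgrg7, Adgre4 and Adgre1. Adgre5 held 99.5, 73.2 and 101.4 CPM there (log2 difference -1.04, SE 0.14, edgeR adjusted p = 6.50e-05), between the 2 endothelial classes. Adgrg7, an orphan receptor of the gut, rested on 23, 41 and 5 UMIs and Adgrl3 on 2, 1 and 2 UMIs. Without WT and without FLOX Adgrg7 fell under the UMI minimum and Adgrl3 lost the call (edgeR adjusted p = 0.125 and 0.114), so 3 were left each time. Adgrl3 lost it with stricter Stab2 gates as well (0.0562). Without mixed droplets Adgre5 and Adgre4 were left. Adgrv1 lost its call for endothelium without WT (adjusted p = 0.110) and without FLOX (0.0628). Between stroma and haematopoietic cells 7 receptors were higher in stroma and 7 in haematopoietic cells, against 36.1% and 31.7% of all genes and 67.8% in either direction. Scaling by totals in place of TMM moved the median of all genes by 0.23 in the endothelial and 0.16 in the stromal contrast with haematopoietic cells, and changed no call of a receptor.

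Haematopoietic cells were split by marker lists into lineages, a cell being marked for a lineage when at least 50% of its markers had 2 or more UMIs. Stem and progenitor-marked cells, scored on a list that includes Meis1 and Mecom, numbered 4, 121 and 19. They made up 0.703%, 17.6% and 6.84% of the class. Their Adgrl4 stood at 487 (95% Poisson interval 323 to 703), 480.4 (447 to 516) and 477.5 CPM (404 to 560.1). Adgrg1, which is known as a marker of blood stem cells, stood at 313 (185 to 494), 402 (371.5 to 434) and 326 CPM (266 to 395). The intervals of the 3 libraries overlapped for Adgrl4, while the number of such cells differed.

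Meis1 and Mecom are also expressed by endothelium, so the endothelial receptors were read in the same cells. Adgrf5 held 0, 1.88 and 6.33 CPM and Adgrg6 held 0, 0.627 and 0 CPM in stem and progenitor-marked cells. Sinusoidal cells held at least 602 and 451 CPM of these genes. Adgrl4 was seen in 4 of 4, 119 of 121 and 18 of 19 such cells. Cells with no lineage call carried 26.4, 260.8 and 62.5 CPM of Adgrl4 as well.

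Other lineages carried Adgrg3, Adgre5 and, in part, Adgrg1. Adgrg3 stood at 58.96, 65.7 and 64.7 CPM in neutrophil-marked cells and at 79.3, 66.3 and 91.7 CPM in myeloid progenitor-marked cells, where Adgrg1 was at 0 to 29.7 CPM over both. Basophil and mast-marked cells, of which there were 27, 15 and 8, held 127.4, 183.7 and 149.1 CPM of Adgrg3 and also 113.7, 122.5 and 21.3 CPM of Adgrg1. B lineage-marked cells held 10.5, 5.33 and 0 CPM of Adgrg3 and 57.8, 28.5 and 24.4 CPM of Adgrg1. Stem and progenitor-marked cells, where its neighbour Adgrg1 was high, held 34.8, 25.7 and 53.8 CPM of Adgrg3.

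Adgre5 stood at 176.3, 156.5 and 197.1 CPM in B lineage-marked cells and at 125.0, 250.4 and 196.7 CPM in the 12, 13 and 7 monocyte and macrophage-marked cells. Stem and progenitor-marked cells held 0, 19.4 and 31.6 CPM. Adgre1, the F4/80 gene, held 40.2, 71.5 and 21.9 CPM and Adgre4 held 26.8, 23.9 and 32.8 CPM in the monocyte and macrophage-marked cells, on 2 to 12 UMIs each. Adgrl2 stood at 26.7, 45.8 and 43.6 CPM in plasma-marked and 17.4, 50.2 and 34.8 CPM in stem and progenitor-marked cells, and at 0.531 to 1.71 CPM in neutrophil-marked cells. Lineages with few cells have wide counting intervals, such as 37.0 to 125.0 CPM for Adgre1 in FLOX.

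**Figure D4:**
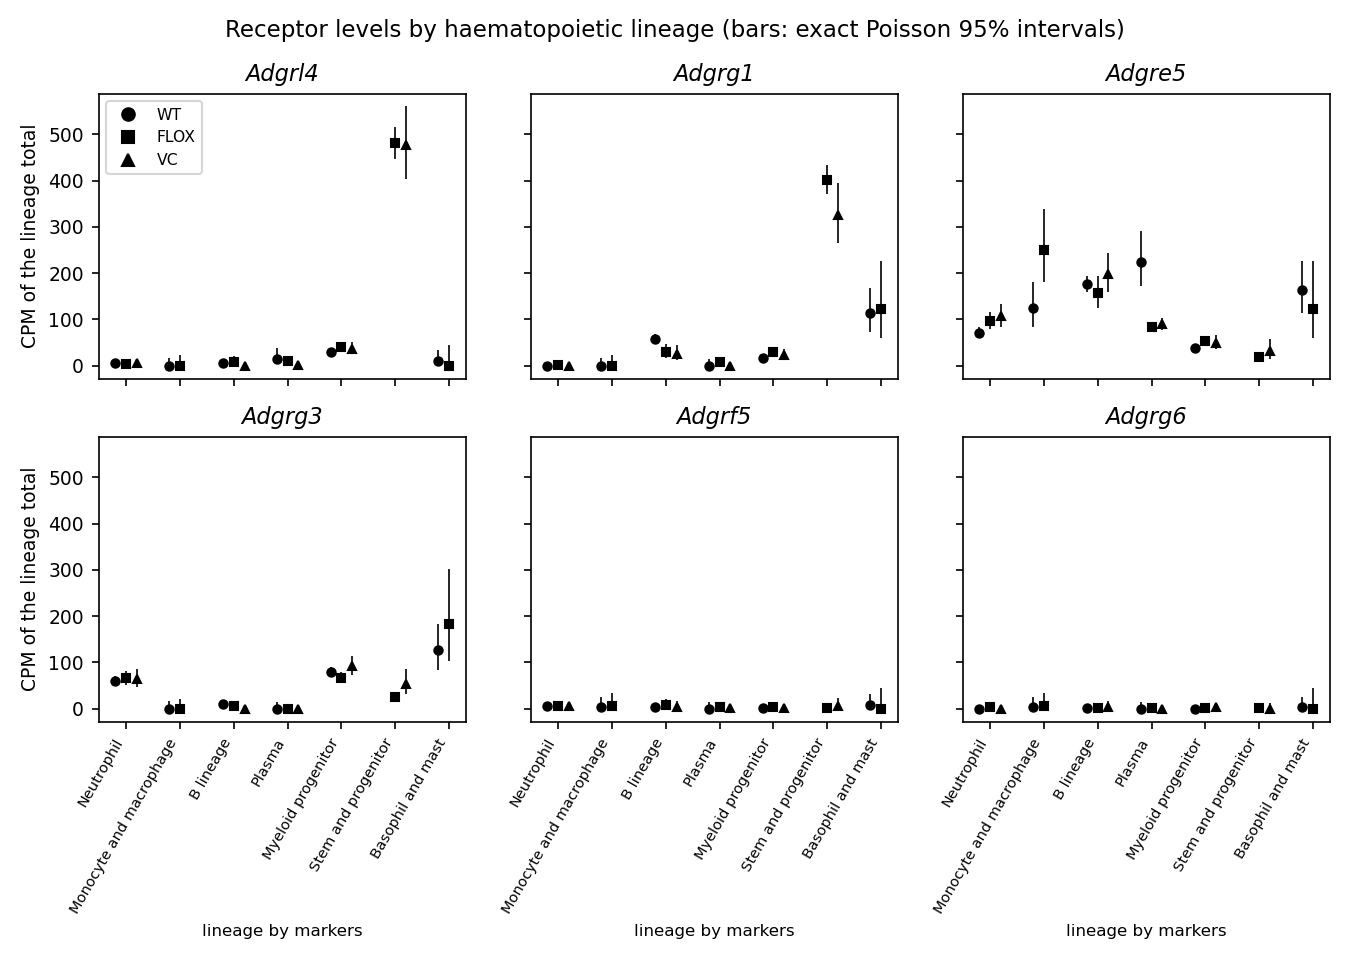
Level of 6 receptors by haematopoietic lineage in CPM, with exact Poisson 95% intervals, for lineages of a library with at least 10 cells. Adgrl4 stood at 480.4 (FLOX) and 477.5 CPM (VC) in stem and progenitor-marked cells, while Adgrf5 and Adgrg6 stayed under 10 CPM in all the lineages drawn.

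Ligands and partners were read from a list of 31 genes, 21 of them tested. Between sinusoidal and other endothelial cells 4 were higher and 9 lower, and 8 were not called (median log2 difference -0.86). Over all genes 14.1% were higher and 16.5% lower, with a median of 0.03. Cd55, the ligand of Adgre5, was on the side with little Adgre5, at 289, 315 and 294 CPM in sinusoidal against 55.8, 51.0 and 51.8 CPM in other endothelial cells (2.57, SE 0.12, edgeR adjusted p = 1.19e-06). Thy1, another Adgre5 partner, was at 0 to 0.0331 CPM in sinusoidal and 0.975 to 3.34 CPM in other endothelial cells. The latrophilin ligand Flrt3 was at 58.0, 57.4 and 76.8 against 10.9, 6.50 and 7.79 CPM (3.02, SE 0.33, adjusted p = 1.05e-04). Nrxn3 was at 1.48 to 2.08 CPM in sinusoidal cells and at 0 UMIs in other endothelial cells. Tenm2 was at 0 UMIs in sinusoidal cells and at 0 to 2.23 CPM in other endothelial cells.

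Partners of Adgrg6 and Adgrg1 were read next. Col4a1, a collagen IV chain that Adgrg6 binds, was at 538, 500.4 and 539.5 CPM in sinusoidal and 1039, 952.5 and 897.5 CPM in other endothelial cells, a difference that was not called (-0.81, SE 0.33, edgeR adjusted p = 0.0881). Tgm2, a partner of Adgrg1, was higher in sinusoidal cells (1.26, SE 0.24, adjusted p = 0.00275). Col3a1, the collagen that Adgrg1 binds, was at 0.529 to 1.30 CPM in sinusoidal, 2.43 to 34.5 CPM in other endothelial and 132.3 to 205.3 CPM in stromal cells. Other endothelial cells also carried fibroblast markers, at 67.3, 371 and 330.0 CPM against 9.69 to 18.7 CPM in sinusoidal cells, and their part in the Col3a1 values was not tested.

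Against stroma, 4 partners were higher in endothelium and 11 in stroma, and 6 were not called (median -1.12), against 25.5% and 28.8% of all genes (median 0.00). Plxdc2, a reported partner of Adgrd1, was at 609.5 to 807 CPM in stroma and 0.931 to 1.42 CPM in sinusoidal cells (-8.37, SE 0.28, edgeR adjusted p = 3.88e-09). Lama2, the laminin chain known as an Adgrg6 ligand, was at 46.5 to 67.1 CPM in stroma and 0.0661 to 0.0931 CPM in sinusoidal cells (-7.02, SE 0.40, adjusted p = 1.01e-06). Flrt3 had the highest endothelial difference (5.39, SE 0.44, adjusted p = 2.32e-06), and Flrt1 was called with 0 to 0.149 CPM in stroma and 0.946 to 1.36 CPM in sinusoidal cells. Reck, the partner through which Adgra2 reads Wnt7, was at 21.5 to 34.9 CPM in stroma and 7.12 to 10.5 CPM in sinusoidal cells (-1.98, SE 0.20, adjusted p = 1.28e-05).

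Against haematopoietic cells, 12 partners were higher in endothelium and 3 lower, and 13 were higher in stroma and 3 lower (medians 3.41 and 3.48). Of all genes, 32.9% and 33.0% were called in the first contrast and 36.1% and 31.7% in the second (medians 0.00 and 0.06). Thy1 was among the lower ones in both contrasts, at -2.74 (SE 0.61, edgeR adjusted p = 0.00231) and -2.14 (SE 0.71, adjusted p = 0.0200). Flrt2 and Lama2 were at 0 UMIs in haematopoietic cells and at 65.8 to 67.2 and 46.5 to 67.1 CPM in stroma. Col4a1 was at 6.49 (SE 0.42, edgeR adjusted p = 3.79e-07) in the endothelial contrast.

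Of 18 genes of G proteins and of exchange factors that act after them, 6 were higher in sinusoidal than in other endothelial cells, 4 were lower and 8 were not called (median 0.01), with 14.1% and 16.5% of all genes. Gna12, a G protein that acts on RhoA, was at 150.2, 149.9 and 150.1 CPM in sinusoidal and 84.3, 77.0 and 84.0 CPM in other endothelial cells (0.94, SE 0.11, edgeR adjusted p = 1.45e-04). Gnai1, an inhibitory subunit, had the highest difference at 1.26. Gna14 (-4.54) and Gna15 (-2.70), subunits that act on phospholipase C, were lower, the second being a gene of blood cells at 21.7 to 29.9 CPM in the haematopoietic class. Against stroma 10 were higher in endothelium and 4 lower (median 0.53), beside 25.5% and 28.8% of all genes, with Gna12 at 1.84 and Gna15 at 2.22 above 0 and Gnai1 at -4.94 and Gnao1 at -3.82 below it. Against haematopoietic cells 12 were higher in endothelium and 4 lower, and 9 were higher in stroma and 6 lower (medians 0.58 and 0.36), where 65.8% and 67.8% of all genes were called. Gnao1 (3.89) and Arhgef12 (3.78), an exchange factor for RhoA, were the furthest above 0 in the first, with Gna14 (-3.30) and Gna15 (-3.10) below it. Gnai1 (8.62) and Gnao1 (7.71) were so in the second, with Gna15 (-5.32) and Gnaz (-3.08) below it.

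The Celsr receptors belong to the same receptor class under other symbols. Celsr1 and Celsr2 were tested and were both higher in endothelium than in stroma (edgeR adjusted p = 2.65e-04 and 0.00307). Their levels were low, at 2.095 to 3.53 and 1.54 to 2.81 CPM in sinusoidal cells and 0 to 0.224 and 0.0745 to 0.671 CPM in stroma. Haematopoietic cells held 2.87 to 6.31 CPM of Celsr1.

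The study compared marrow with and without a Cre meant to delete Vegfc in endothelium. Each genotype is 1 library, so a difference between genotypes has no replicate check and no test, and the intervals cover counting error only. A receptor was counted as higher or lower in VC when it held at least 10 CPM on average and at least 50 UMIs, and differed at least 1.5-fold from both control libraries and by more than these differed from each other. No receptor met this in the 10 tested in sinusoidal, 9 in other endothelial, 6 in LepR stromal and 5 in haematopoietic cells. Of all genes, 1.43% were higher and 0.301% lower in VC in sinusoidal cells, 1.93% and 5.80% in other endothelial cells, 0.916% and 0.510% in stromal cells and 0.641% and 4.47% in haematopoietic cells. With 5 to 10 receptors per class, a count of 0 is near this background.

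In sinusoidal cells the 10 receptors stayed within log2 ratios of -0.38 to 0.24 for VC against WT and -0.34 to 0.25 for VC against FLOX, while FLOX against WT ran from -0.29 to 0.44. Adgrl4 in VC was 325 CPM (95% Poisson interval 318 to 333), below 357 in the FLOX library (350.0 to 363.5) and 423 in WT (417 to 429.6). Adgrg3 in VC was 199.8 CPM (193.8 to 205.8), above 177.9 in the FLOX library (173.2 to 182.7) and 169.7 in WT (165.6 to 173.8). Adgre5 in VC was 16.6 CPM (14.9 to 18.4) against 21.1 and 21.3. Adgrg1 in VC was 131.8 CPM (127.0 to 136.8) and Adgrf5 602 CPM (591.8 to 612.6), both below their controls. The VC intervals of these receptors do not overlap those of the controls, but the share of all genes with such a gap is not known here. The control intervals lay apart from each other as well for Adgrl4 and for Adgrf5, at 754 to 772 CPM in WT and 614 to 632 CPM in the FLOX library. The same held for Adgrl1, at 22.3 in WT and 30.2 CPM in the FLOX library. These gaps are therefore not read as a difference of genotype.

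In stromal cells the 6 receptors ran from -0.28 to 0.41 for VC against WT and from -0.10 to 0.22 for VC against FLOX. In other endothelial cells Adgrg6 held 58.8 CPM in WT (47.7 to 71.8) and 37.7 and 37.8 in the others, and Adgrl1 held 15.8 CPM in WT and 28.6 and 24.5 in the others. Both met the size with WT as the library set apart, as did 6.29% of all genes that were higher and 5.09% that were lower in WT. The WT other endothelial class also held fewer arterial markers, at 452 CPM against 1204 and 1067.

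In haematopoietic cells WT was the low library for Adgrl4 and Adgrl2, the second at 8.17 CPM against 30.4 and 23.0, and FLOX was the high library for Adgrg1. By the same size 3.98% of all genes were lower in WT and 1.18% higher in the FLOX library. The number of stem and progenitor-marked cells was 4, 121 and 19, lowest in WT and highest in the FLOX library, as were the levels of Adgrl4 and Adgrg1. The part of cell makeup in these levels was not tested, and cells with no lineage call also held more Adgrl4 in the FLOX library than in WT. Without the stem and progenitor-marked cells the log2 ratio of VC over WT went from 1.43 to -0.17 for Adgrl4 and from 0.28 to -0.93 for Adgrg1. Adgrg1 then met the size as lower in VC. For Adgrl2 it was 1.49 with and 1.45 without them. Plasma cell markers, which like Adgrl2 were lowest in WT but were highest in VC rather than in the FLOX library, summed to 1113 CPM in WT and to 15894 and 19989 CPM in the other haematopoietic classes, and their part in it was not tested.

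**Figure D5:**
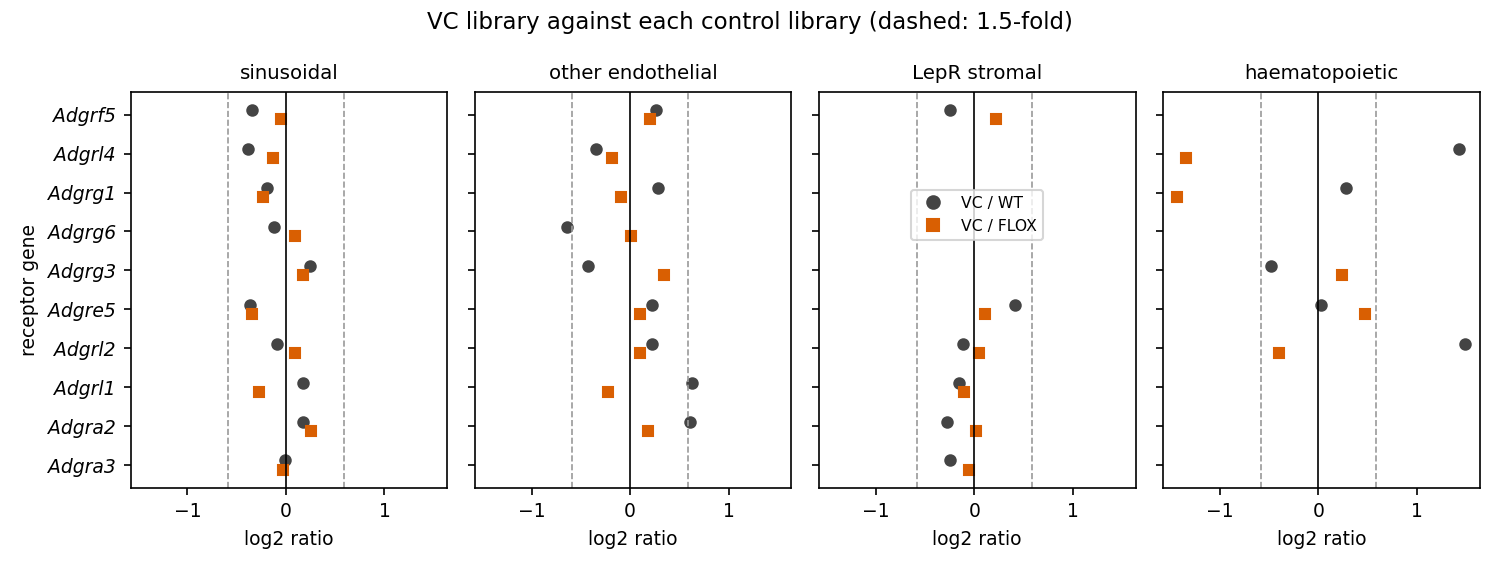
Log2 ratio of the VC library over WT (circles) and over FLOX (squares) for each receptor with at least 10 CPM in the class, with dashed lines at 1.5-fold. In sinusoidal and LepR stromal cells the points lie inside the lines, and in haematopoietic cells Adgrl4 lies at 1.43 over WT and -1.34 over FLOX.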

How the data were processed

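Raw UMI counts per gene and barcode were deposited as whole numbers in 1 filtered matrix per library, per the file headers and values. Cell Ranger 2.1.1, Seurat 3.1 and the mm10 genome stand in the submitters' processing notes. Per the file headers the software was at 3.1.0, so which version counted the UMIs is uncertain. The libraries total 56853574 (WT), 61758462 (FLOX) and 37361779 UMIs (VC). The receptors, gene lists and gates were chosen with earlier results of these data known. Of the 12790 kept cells, 800 (6.25%) fell outside the gates.

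UMIs were summed per library and class. edgeR 4.0.16 (R 4.3.3) fitted a quasi-likelihood model to the 12 sums with TMM scaling and the library as a block, with 6 residual degrees of freedom. The endothelial contrasts took the mean of both endothelial classes, tests were two-sided, and Benjamini-Hochberg adjustment ran over 14771 genes. The library is the replicate (n = 3), and each is of another genotype. With the block in the model, p-values measure how far the class differences vary between these libraries, with the spread shared over the 4 classes. The block pairs the classes that came from the same library. The script was tested on simulated data. Shares used cells thinned to 2000 UMIs, which left out 2 to 40 cells per class and library. Shares carry exact Clopper-Pearson intervals in the tables and sums exact Poisson intervals at 95%. Named receptors are those at a mean of 10 CPM or more in a class, named partners the 2 outermost calls in each direction of a contrast and known partners of described receptors. DESeq2 1.42.0, other filters and gates and left-out libraries were alternatives. Positions are from GENCODE vM21 and promoters from RefSeq. Some genes of the lists are not reported here.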

Additional observations from a re-analysis of the deposited data

Results flagged for a closer look

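Cells that passed the filter but fell outside the 4 gates also held adhesion receptor counts. All 27 genes together made up 837.5 CPM in the 289 such WT cells, 890.0 CPM in the 357 FLOX cells and 761.4 CPM in the 154 VC cells. These values lie between the stromal and the other endothelial sums in each library. The cells belong to no comparison above.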

How the results depend on the processing

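The calls of single receptors held with DESeq2, with no filter on low counts, with the stricter cell filter and with totals in place of TMM. Without the library block, 3 and 2 receptors were called between the endothelial classes, 6 and 5 between endothelium and stroma, 10 and 5 between endothelium and haematopoietic cells, and 7 and 7 between stroma and haematopoietic cells, so the pairing changed 1 call, that of Adgrl1 in stroma. The count higher in other than in sinusoidal endothelium fell from 2 to 1, as Adgre4 lost its call or fell under the UMI minimum, with only the classes compared, without mixed droplets and with stricter Stab2 gates, and ran from 1 to 2 over left-out libraries. Adgre4 itself turned from -3.91 to 3.31 without mixed droplets. The count higher in stroma than in endothelium ran from 3 to 6 over left-out libraries, with 3 when VC was left out. The count higher in haematopoietic cells than in endothelium ran from 3 to 5 over left-out libraries and was 2 without mixed droplets. By the mean of per-cell CPM, 1 receptor (Adgra3) met the size as higher in VC in other endothelial cells. Without stem and progenitor-marked cells, a setting chosen after seeing the data, 1 receptor (Adgrg1) met it as lower in VC in haematopoietic cells. The causes were not tested. Leaving out mixed droplets moved differences against stroma further from 0 for Adgrl4, Adgrg6 (6.93), Adgrg1 and Adgrg3 (4.80). Depth limits the 7 tested receptors under 10 CPM, whose calls rest on 77 to 200 UMIs.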
